A study of Mus musculus with 227 samples.

Results

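Genomic imprinting leaves a gene active mainly on the copy inherited from one parent, and 10 imprinted genes were followed here through a drug screen of cultured mouse cortical cells. The genes were Mest, Plagl1, Peg3, Ndn, Snrpn, Ube3a, Magel2, Grb10, Igf2 and H19. They were chosen by name, as the rows of the count table that carry these symbols. Each symbol matched 1 row, giving 10 of the 31689 rows.

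RNA came from primary cerebrocortical cultures taken from mouse embryos at embryonic day 16.5, of the strain labelled F1 embryo FVBN(F)xC3B6F1(M). At 21 days in vitro the cultures received either 1 of 218 drugs that enter the brain or vehicle, 0.2% DMSO, and RNA was isolated after 8 h. Each drug has 1 library and vehicle has 9, so the spread between samples is known for vehicle alone, and the labels give no drug doses. The cultures are a mixture of cells, no allele was read, and reads from the maternal and the paternal copy cannot be told apart in these counts. The labels do not say whether the vehicle libraries came from separate cultures. The p-values of a single drug against vehicle therefore measure only the spread between these vehicle libraries. Other p-values below also draw on the spread between drug libraries.

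Imprinted genes are marked by DNA methylation set in the egg or the sperm, and the mark keeps 1 parental copy silent in the embryo. Many lie in clusters under a shared control region, and many act on growth, metabolism or the brain. In neurons some clusters behave differently from other tissues. Ube3a, for example, is silenced on the paternal copy there.

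The members fall at 6 places in the mouse genome, given here in mm10 coordinates. The Prader-Willi and Angelman cluster on chromosome 7 holds Ube3a (chr7:59228750-59311536, plus strand), Snrpn (chr7:59982495-60140219, minus strand), Ndn (chr7:62346569-62350262, plus strand) and Magel2 (chr7:62377010-62381640, plus strand). Peg3 (chr7:6703892-6730431, minus strand) lies elsewhere on chromosome 7, beside Usp29. H19 (chr7:142575529-142578143, minus strand) and Igf2 (chr7:142650766-142666816, minus strand) share another cluster on that chromosome. Mest lies at chr6:30723547-30748465 on the plus strand, Plagl1 at chr10:13060504-13131694 on the plus strand and Grb10 at chr11:11930508-12038683 on the minus strand. H19 is a long noncoding RNA and the other 9 members code for proteins.

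Promoter windows are shown for the 3 members that passed the test with the kinase inhibitor Nilotinib, Mest, Plagl1 and Snrpn. Each window runs from 250 bases before to 50 bases after an annotated start, in RefSeq's GRCm38.p6, and is written 5′ to 3′ on the gene's strand. Capitals mark GCGGCA, the reverse complement of TGCCGC, the hexamer bound by ZFP57, a zinc finger protein that keeps methylation at imprinted control regions. The windows lie at chr6:30737800-30738099 (plus strand), chr10:13090582-13090881 (plus strand) and chr7:60005150-60005449 (minus strand).
Mest: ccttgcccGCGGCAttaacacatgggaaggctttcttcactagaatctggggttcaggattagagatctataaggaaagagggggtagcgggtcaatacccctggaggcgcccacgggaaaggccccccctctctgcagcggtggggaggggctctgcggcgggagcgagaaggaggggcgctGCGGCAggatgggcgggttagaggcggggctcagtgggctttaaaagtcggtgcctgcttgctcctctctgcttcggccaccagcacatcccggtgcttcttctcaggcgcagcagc
Plagl1: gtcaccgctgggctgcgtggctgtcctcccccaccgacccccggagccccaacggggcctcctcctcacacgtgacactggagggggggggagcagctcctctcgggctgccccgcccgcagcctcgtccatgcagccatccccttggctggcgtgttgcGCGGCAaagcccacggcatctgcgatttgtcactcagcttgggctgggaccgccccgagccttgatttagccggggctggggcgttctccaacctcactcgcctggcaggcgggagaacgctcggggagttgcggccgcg
Snrpn: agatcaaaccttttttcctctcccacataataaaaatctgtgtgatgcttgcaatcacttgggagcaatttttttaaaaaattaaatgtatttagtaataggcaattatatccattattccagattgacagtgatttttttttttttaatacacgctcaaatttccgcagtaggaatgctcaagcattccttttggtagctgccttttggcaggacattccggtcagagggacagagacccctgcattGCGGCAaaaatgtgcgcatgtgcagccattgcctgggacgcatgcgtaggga
The hexamer, searched on both strands, stood in 6 of the 18 windows of the 9 members with a window, and in 11.6% of all 32851 promoter windows of the same length. The 6 include a pair of overlapping Mest windows that hold the same matches. The hexamer itself holds a CG. All promoter windows had a median of 7 CG, the 6 member windows with a match held between 7 and 45, and the other member windows between 2 and 29. The part of CG content in these shares was not tested. The windows printed were picked for holding the hexamer, and 3 other Snrpn windows and 1 other Mest window held none. The match is a description of the letters. Neither methylation nor ZFP57 binding was measured in these libraries.

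Library totals ran between 22.02 and 65.19 M counts in drug libraries and between 31.4 and 43.77 M counts in vehicle libraries. The library names carry 9 run codes, and 3 of them (HI.3139, HI.3140 and HI.3254) hold no vehicle. The cultures carried the RNA of the labelled tissue. The 6 neuron markers summed to between 3370 and 6060 CPM (counts scaled to a common library size) in drug libraries and between 4240 and 5850 CPM in vehicle libraries. The 5 astrocyte markers summed to between 4810 and 7590 CPM in drug libraries and between 5210 and 6580 CPM in vehicle libraries. Markers of blood vessel lining and microglia were low: 4 of 5 and 3 of 5 averaged under 1 CPM. Of the 4 choroid plexus markers 3 did, and the list, mostly Ttr, summed to between 0.566 and 81.3 CPM in drug libraries and between 0.784 and 32.2 CPM in vehicle libraries.

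Snrpn and Ndn were the most abundant members per length of transcript, and Magel2 and H19 the least. Snrpn, which codes for the neuronal splicing protein SmN, averaged 158.9 RPKM (reads scaled to gene length and library size) in the vehicle libraries. Ndn, a MAGE family protein of neurons, averaged 128.9 RPKM. Peg3, a zinc finger protein, averaged 40.07 RPKM and Mest, an enzyme-like protein of growing tissues and fat, 38.27 RPKM. Ube3a, a ubiquitin ligase, averaged 26.99 RPKM, Plagl1, a zinc finger transcription factor also known as Zac1, 17.55 RPKM, and Grb10, an adaptor that dampens insulin receptor signalling, 15.27 RPKM. Igf2, a growth factor, averaged 7.105 RPKM, Magel2, another MAGE family protein, 0.708 RPKM, and the H19 RNA 0.5475 RPKM.

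Not every step in that order was wider than the spread over the 9 vehicles. The RPKM ranges of neighbours overlapped for Snrpn and Ndn, Peg3 and Mest, Plagl1 and Grb10, Grb10 and Igf2, and Magel2 and H19. Within single vehicle libraries Snrpn nonetheless stood above Ndn in 9 of 9, whereas Peg3 stood above Mest in 5 of 9 and Plagl1 above Grb10 in 4 of 9. Snrpn shares its locus with Snurf, which was listed at 0 counts in every library, and the strand setting of the counting is not given in the sources used here. Reads of Ube3a and of the antisense transcript over it, and of Peg3 and the neighbouring Usp29, may therefore not be fully separated.

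The members differed in how steady they were without any drug. Mest varied least, with 99.31, 106.4 and 117.9 CPM as the lowest, median and highest vehicle library and a coefficient of variation of 5.62%. Igf2 had 17.45, 32.23 and 77.34 CPM in the same 9 libraries, and H19 had 0.1559, 0.8561 and 2.837 CPM. H19 rests on few reads, with 2 counts in its lowest drug library, and its values carry a large counting error.

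Mest, the member that varied least over the vehicles, left the vehicle range more often than any other member. Its level ran between 71.0 CPM (CP-610927-01) and 240.5 CPM (Fenofibrate) over the 218 drugs, with a median of 107.5 CPM, against a vehicle mean of 106.4 ± 5.98 CPM (SD, n = 9). In 65 drug libraries Mest was above all 9 vehicles and in 63 it was below all 9. Over all genes with a mean of 1 CPM or more, 9.65% of drug values lay above and 9.9% below all 9 vehicles. Peg3 lay above all vehicles with 3 drugs and below with 13, and Ube3a with 2 and 34.

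**Figure D1:**
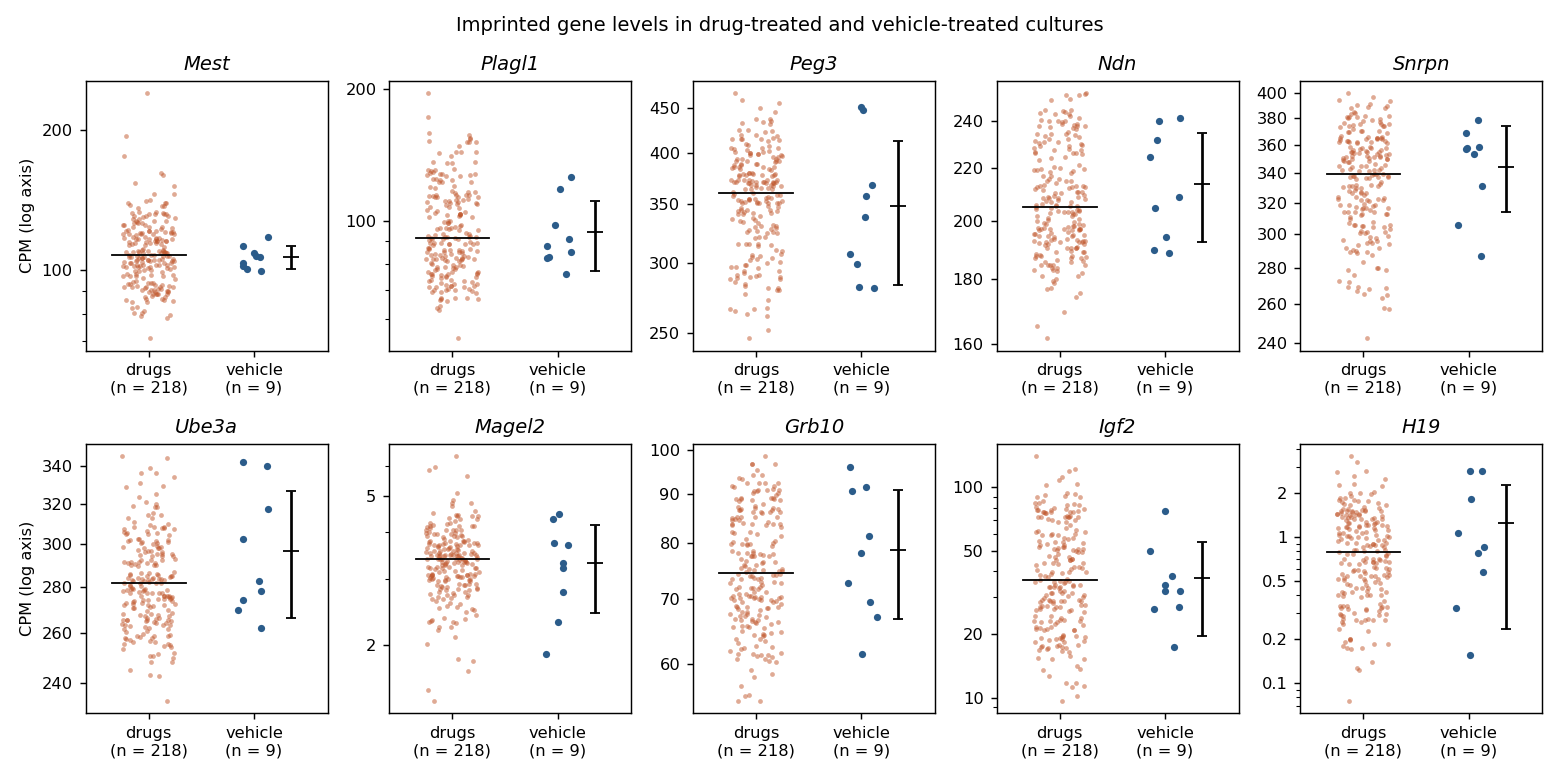
CPM of the 10 imprinted genes on log axes, 1 point per library, with 218 drug libraries on the left of each panel and 9 vehicle libraries on the right. The line is the drug median and the bar the vehicle mean ± SD. Mest vehicles sit between 99.31 and 117.9 CPM while the highest drug library reaches 240.5 CPM, and Igf2 and H19 spread widely in both groups.

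Every member differed between run codes. A limma F test over the 9 run codes passed for 10 of 10 members (adjusted p of 7.63e-06 or lower), but also for 91.9% of all 15474 genes tested, so a pass does not set these genes apart. Run code accounted for a median of 34.3% of the variance of the members in log2 CPM, beside 23.5% over all genes tested and 29.2% over 51 other imprinted genes.

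Among the members, Igf2 had the largest share of its variance between runs. Run code held 62.0% of its variance, and its run medians lay between 21.27 CPM in run HI.3254 and 75.98 CPM in run HI.3145, a 3.6-fold range. H19 went the other way at the ends, with its highest run median in run HI.3254 (1.676 CPM) and its lowest in run HI.3145 (0.3299 CPM). Plagl1 was also highest in run HI.3145, at 119.3 CPM, and lowest in run HI.3083, at 76.4 CPM. Snrpn was lowest in run HI.3145, at 305.4 CPM, and highest in run HI.3147, at 373.6 CPM. Mest had the smallest share of variance between runs, at 15.9%, and its run medians lay between 97.63 and 119.9 CPM. Each run holds its own set of drugs, so run and drugs cannot be told apart in these values. What else differs between runs (plating, cultures or sequencing) is not in the labels and was not tested.

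**Figure D2:**
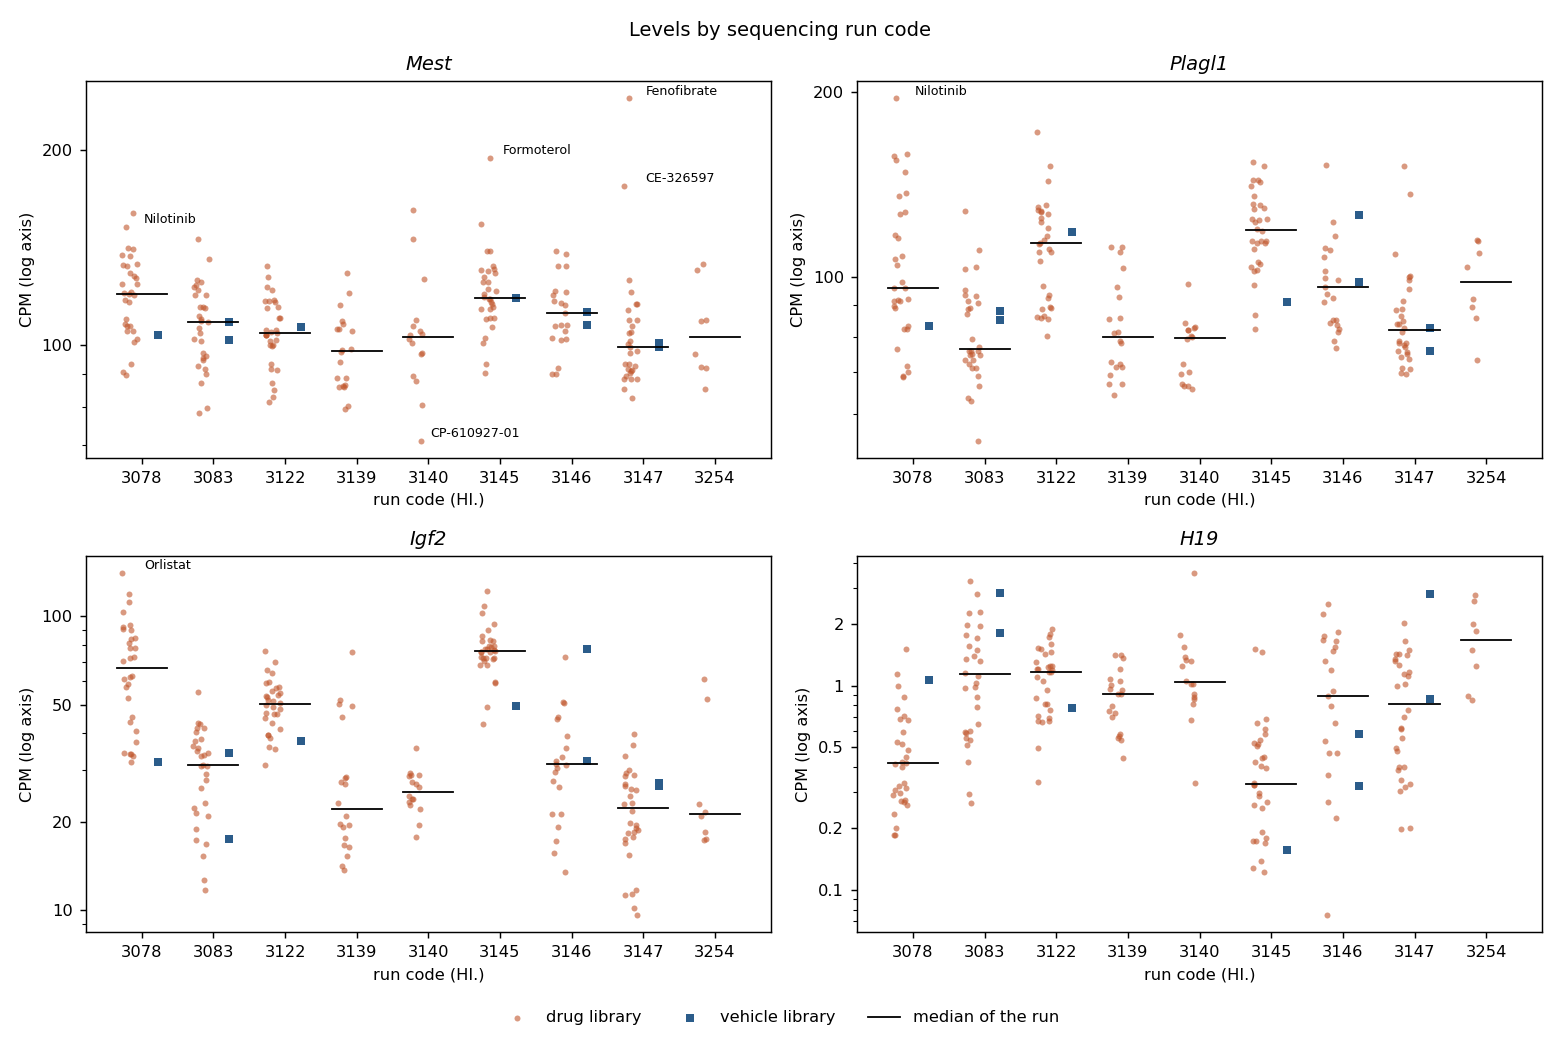
CPM of Mest, Plagl1, Igf2 and H19 on log axes by run code, with drug libraries as circles on the left of each code, vehicle libraries as squares on the right and the median of all libraries of the run as a line. Fenofibrate, CE-326597 and Formoterol stand above their runs for Mest, and the Igf2 run medians differ 3.6-fold.

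Each drug was set against the 9 vehicles with edgeR's quasi-likelihood test, adjusted over all genes by the Benjamini-Hochberg method. Of 2180 tests (10 members in 218 drugs), 6 passed at an adjusted p under 0.05, 5 of them rises and 1 a fall, in 4 drugs. Over all genes and drugs 0.12% of tests passed. Mest made up 4 of the 6, Plagl1 and Snrpn 1 each, and Peg3, Ndn, Ube3a, Magel2, Grb10, Igf2 and H19 none. DESeq2 passed 18 member tests, 15 of them Mest, with 0.28% of all tests. Limma with run code passed 12, with 0.512%, and called Fenofibrate, Nilotinib, CE-326597 and Ursodiol. Each vehicle tested in the same way against the other 8 gave 0 calls among the members with edgeR, and 4 unadjusted p-values under 0.05. At an unadjusted p under 0.05, Mest was higher with 47 drugs and lower with 39, out of 218, where 3.85% of all tests fell under that limit. These Mest counts rest on the narrow spread of Mest over the 9 vehicles, with a median SE of 0.09. In limma with run code, where the error comes from all libraries, the SE was 0.21 with Fenofibrate and 0.23 with Nilotinib. That fit called Mest with 2 drugs.

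Fenofibrate, a fibrate whose active form stimulates the fatty acid sensor PPARα, gave the highest Mest level in the screen. Mest stood at 240.5 CPM with Fenofibrate, against 99.31, 106.4 and 117.9 CPM as the lowest, median and highest vehicle. The groups did not overlap, and Fenofibrate also exceeded the other 31 libraries of its run, which lay between 82.77 and 175.9 CPM. Mest was 2.2-fold higher (1.2 ± 0.08 on the log2 scale, SE), with an edgeR adjusted p of 2.57e-05. In that library 5.82% of all 15525 genes tested rose and 10.6% changed in either direction, which is the background of the 1 member called.

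The remaining members did not pass with Fenofibrate in edgeR. Plagl1 had 151.5 CPM with Fenofibrate and a log2 fold change of 0.67 ± 0.22 (edgeR adjusted p = 0.0808), above all 31 other libraries of the run. Ube3a stood at 232.9 CPM, below all 9 vehicles (lowest 262.2 CPM), with a log2 fold change of -0.36 ± 0.15 (edgeR adjusted p = 0.162). Snrpn at 279.0 CPM was also below all 9 vehicles, with -0.31 ± 0.14 (edgeR adjusted p = 0.189). A limma fit with the run code as a term passed 5 members, with 28.8% of all genes: Mest (1.3 ± 0.21) and Plagl1 (0.86 ± 0.27) were higher, and Peg3 (-0.48 ± 0.16), Snrpn (-0.4 ± 0.12) and Ube3a (-0.31 ± 0.1) were lower, with adjusted p between 3.7e-07 and 0.0186. The neuron markers summed to 3840 CPM with Fenofibrate, below the 4240 to 5850 CPM of the vehicles. The inhibitory neuron markers, at 910.0 CPM, were also below the vehicles (1390 to 2070 CPM). The excitatory neuron markers, at 1000 CPM, lay inside the vehicle range (611.0 to 1290 CPM). The astrocyte markers summed to 7590 CPM, above the 5210 to 6580 CPM of the vehicles. The part of these lists in the result was not tested. In bulk RNA, fewer cells of a type and less RNA per cell cannot be told apart.

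The screen holds 4 more drugs of the fibrate group, which were put together after their values had been seen. Mest had 161.6 CPM with Clofibrate and 145.6 CPM with Ciprofibrate, both above the highest vehicle at 117.9 CPM. It had 89.42 CPM with Bezafibrate, below the lowest vehicle at 99.31 CPM, and 101.7 CPM with Gemfibrozil, inside the vehicle range. The edgeR log2 fold changes were 0.6 ± 0.09 for Clofibrate (adjusted p = 0.118), 0.45 ± 0.09 for Ciprofibrate (0.0538), -0.24 ± 0.09 for Bezafibrate (1.0) and -0.06 ± 0.09 for Gemfibrozil (1.0). DESeq2 called Mest higher with Clofibrate (adjusted p = 5.72e-06, where 0.175% of genes passed) and Ciprofibrate (adjusted p = 0.000926, where 3.46% passed). Limma with run code called neither (0.69 ± 0.23, adjusted p = 0.376 for Clofibrate, and 0.53 ± 0.23, adjusted p = 0.179 for Ciprofibrate). Clofibrate, Ciprofibrate and Bezafibrate share run HI.3140, which has no vehicle, and doses are not given, so the drugs are set side by side only.

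Nilotinib, an inhibitor of the BCR-ABL kinase, was the only drug with more than 1 member past the edgeR threshold. Plagl1 stood at 195.4 CPM with Nilotinib, against 75.92, 88.12 and 126.4 CPM as the lowest, median and highest vehicle. That is 1.04 ± 0.22 on the log2 scale, 2.05-fold, with an edgeR adjusted p of 0.0154, and no other library of the run reached it (highest 158.4 CPM). Mest had 152.0 CPM with Nilotinib, above all vehicles (highest 117.9 CPM), with a log2 fold change of 0.5 ± 0.09 (edgeR adjusted p = 0.0076). Within run HI.3078, however, 1 of the 31 other libraries was higher for Mest, and the limma fit with run code gave 0.37 ± 0.23 (adjusted p = 0.257).

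Snrpn was lower with Nilotinib, at 242.4 CPM, against 287.1, 356.7 and 378.6 CPM as the lowest, median and highest vehicle. This was the lowest Snrpn value of the screen, and the groups did not overlap. Snrpn fell by 0.52 ± 0.14 on the log2 scale, with an edgeR adjusted p of 0.0393. The call was lost, with an adjusted p of up to 0.0791, when Vehicle replicate 4, 5, 6, 7, 8 or 9 was left out, and held with the run code in the model (-0.41 ± 0.12, limma adjusted p = 0.00723). Magel2 had its highest level of the screen with Nilotinib, 6.395 CPM, against 1.888, 3.308 and 4.468 CPM as the lowest, median and highest vehicle. Its log2 fold change of 0.94 ± 0.34 did not pass in edgeR (adjusted p = 0.096) and passed in limma with run code (0.98 ± 0.26, adjusted p = 0.00292). In that limma fit Plagl1, Magel2 and Snrpn passed, with 22.4% of all genes.

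With Nilotinib 12.2% of all 15474 genes tested passed in edgeR, 6.2% as rises and 6.02% as falls, beside 3 of the 10 members. The neuron markers summed to 3370 CPM, the lowest of all 218 drugs, against 4240 to 5850 CPM in the vehicles, while the astrocyte markers, at 5640 CPM, lay inside the vehicle range. The excitatory neuron markers, at 432.0 CPM, were below the vehicles (611.0 to 1290 CPM), and the inhibitory ones, at 1550 CPM, inside their range (1390 to 2070 CPM). Oligodendrocyte precursor markers stood at 70.6 CPM, against 148.0 to 334.0 CPM. The part of these shifts in the Snrpn and Plagl1 values was not tested.

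Formoterol, an agonist of the β2 adrenergic receptor, came with 194.3 CPM of Mest, against 99.31, 106.4 and 117.9 CPM as the lowest, median and highest vehicle. Mest was 1.82-fold higher (0.86 ± 0.09 on the log2 scale), with an edgeR adjusted p of 0.00287, where 0.246% of genes rose and 0.259% changed in either direction. The other 31 libraries of run HI.3145 lay between 90.51 and 153.6 CPM. With run code in the model the change was 0.71 ± 0.22 and did not pass (limma adjusted p = 0.113), where 0.763% of all genes passed. The neuron markers, at 3770 CPM, and the activity-regulated genes, at 97.5 CPM against 137.0 to 1130 CPM, were below all vehicles. The astrocyte markers, at 6750 CPM against 5210 to 6580 CPM, were above all vehicles. The part of these lists was not tested.

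CE-326597, a compound known by its code name, gave 175.9 CPM of Mest, again above all vehicles (99.31 to 117.9 CPM). The log2 fold change was 0.72 ± 0.09, 1.65-fold, with an edgeR adjusted p of 0.0421, and Mest was 1 of only 3 genes called (0.0195% of those tested). Leaving out Vehicle replicate 1, 2, 3, 5, 6, 7 or 9 ended the call, with adjusted p up to 0.12. Among the 31 other libraries of its run Fenofibrate alone was higher. The activity-regulated genes summed to 1500 CPM with CE-326597, above the 137.0 to 1130 CPM of the vehicles, and their part was not tested. The neuron and astrocyte markers, at 5580 and 5530 CPM, lay inside their vehicle ranges. The limma fit with run code passed Mest (0.79 ± 0.22, adjusted p = 0.0205) and Ndn (0.38 ± 0.11, adjusted p = 0.0261), with 3.56% of all genes. Ndn stood at 251.4 CPM with CE-326597, against 188.6, 208.9 and 240.9 CPM as the lowest, median and highest vehicle. Relative to the run, with a median of 192.8 CPM, PF-05019702-00 (242.8 CPM) and CE-210666 (237.0 CPM) came next for Ndn. CE-326597, these libraries and Vehicle replicate 8 (240.9 CPM) share the number that follows the run code in the library names. Its part in the Ndn values was not tested.

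Mitoxantrone·HCl, an inhibitor of the DNA enzyme topoisomerase II, is included because inhibitors of topoisomerases are known to lift Ube3a from its silent paternal copy in neurons. Ube3a had 336.6 CPM with Mitoxantrone·HCl, inside the vehicle range of 262.2, 282.7 and 342.2 CPM (lowest, median, highest). The log2 fold change was 0.18 ± 0.14 (edgeR adjusted p = 0.634). That Ube3a value was the highest of the 8 libraries of run HI.3254, the other 7 lying between 265.4 and 329.3 CPM, and that run has no vehicle. The astrocyte markers, at 4810 CPM against 5210 to 6580 CPM, and the dividing cell markers, at 25.3 CPM against 57.9 to 87.9 CPM, were below all vehicles. The neuron markers (4900 CPM) and the activity-regulated genes (1090 CPM) lay inside their vehicle ranges. The part of these lists in the Ube3a value was not tested. None of the 10 members passed in edgeR, where 0.402% of all genes did, or in limma with run code, where 1.7% did.

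**Figure D3:**
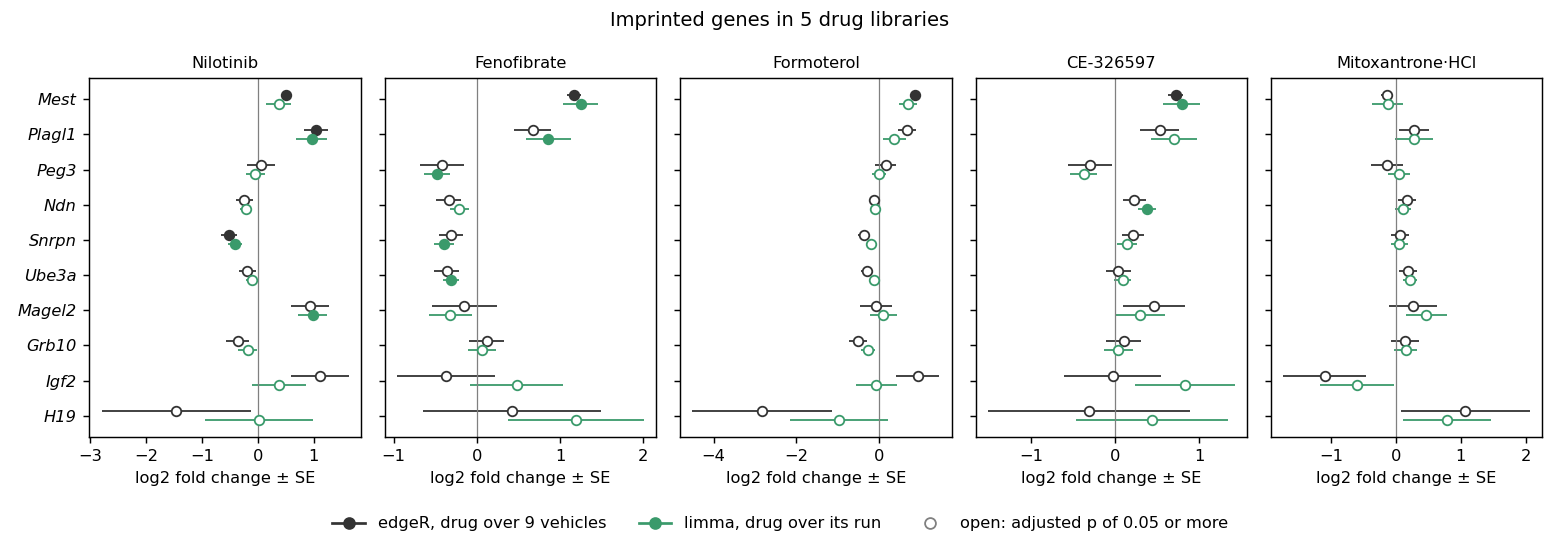
Log2 fold change ± SE of the 10 members in 5 drug libraries, from edgeR (drug over the 9 vehicles, dark) and from limma with run code as a term (green). Filled points have an adjusted p under 0.05. Mest is to the right of 0 in the first 4 drugs, and H19 and Igf2 have the widest errors.

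Other drugs, none of which passed for a member in edgeR, are described by their distance from the median of their own run. Magel2 was high with Triazolam and Temazepam, at 5.992 and 5.868 CPM in a run with a median of 3.504 CPM. It was low with Spironolactone and Tamsulosin·HCl, at 1.416 and 1.7 CPM, from 34 and 50 counts. The median of their run was 3.49 CPM. Spironolactone and Tamsulosin·HCl share the number after the run code in the library names, and its part in the Magel2 values was not tested. Grb10 was lowest relative to its run with Ursodiol, a bile acid, at 54.95 CPM, where the run median was 84.33 CPM. Ursodiol also stood among the 3 lowest for Snrpn, at 272.7 CPM, and limma with run code passed both Grb10 (-0.57 ± 0.16, adjusted p = 0.0345) and Snrpn (-0.35 ± 0.12, adjusted p = 0.0398), with 15.2% of all genes. Ube3a and Grb10 were both high with Glimepiride (344.4 and 92.37 CPM) and Lisinopril·2H2O (334.5 and 92.42 CPM), in a run whose medians were 272.5 and 69.78 CPM. These libraries also share the number after the run code in their names. Gemfibrozil, with the same number, had 313.1 CPM of Ube3a and 80.78 CPM of Grb10, above 20 and 14 of the 22 other libraries of the run. The part of that number in these values was not tested.

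Igf2 stood highest above its run with Duloxetine·HCl, at 75.42 CPM against a run median of 22.09 CPM, followed by Spironolactone (61.25 CPM) and Tamsulosin·HCl (52.18 CPM) in the run with a median of 21.27 CPM. Relative to its run it was lowest with Apigenin, a plant flavonoid, at 11.75 CPM in a run with a median of 31.08 CPM. Deferasirox came next in the same run, at 12.69 CPM. Peg3 was lowest relative to its run with Cyproheptadine·HCl Sesquihydrate, at 261.5 CPM, and Aprepitant, at 279.6 CPM, in a run with a median of 396.4 CPM. The same pair of drugs had the highest H19 relative to the run, at 1.5 and 1.469 CPM beside a median of 0.3299 CPM, from 57 and 59 counts. This pair shares the number after the run code in the library names, and so do Spironolactone and Tamsulosin·HCl. Apigenin and Deferasirox share such a number as well. Duloxetine·HCl shares its number with Cortisone Acetate, which had 51.89 CPM of Igf2, among other libraries. The part of this number in these values was not tested. Ndn lay between 161.5 and 252.2 CPM over all drugs, against 188.6 to 240.9 CPM in the vehicles, with 15 drugs above and 36 below all 9 vehicles.

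Drugs of a class were also joined, as the nearest the design has to replicates of a treatment. None of the 4 classes gave a member past the threshold in edgeR: benzodiazepines 0 of 10 (3.86% of all genes passed), glucocorticoids 0 of 10 (0.0134%), thyroid hormones 0 of 10 (1.3%) and dihydropyridine calcium channel blockers 0 of 10 (0.0%). At an unadjusted p under 0.05 there were 4 members with the benzodiazepines (20.3% of all genes), 2 with the glucocorticoids (3.51%), 1 with the thyroid hormones (21.2%) and 0 with the dihydropyridines (5.75%).

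With the benzodiazepines, which strengthen the inhibitory GABA-A receptor, Magel2 had 3.605 CPM with Clonazepam, 5.649 CPM with Lorazepam, 3.403 CPM with Oxazepam, 5.868 CPM with Temazepam and 5.992 CPM with Triazolam. The vehicles had 1.888, 3.308 and 4.468 CPM as lowest, median and highest, so 3 of the 5 drugs stood above all of them. The log2 fold change was 0.57 ± 0.2 (edgeR adjusted p = 0.134), and 0.49 ± 0.13 with run code in the model (limma adjusted p = 0.00423). Peg3 averaged 425.6 ± 24.1 CPM with the 5 benzodiazepines (SD) and 348.1 ± 64.8 CPM in the 9 vehicles, a log2 fold change of 0.29 ± 0.11 (edgeR adjusted p = 0.163; limma with run code 0.24 ± 0.07, 0.0171). Ube3a averaged 262.9 ± 13.9 CPM and 296.6 ± 30.4 CPM, a log2 fold change of -0.17 ± 0.07 (edgeR adjusted p = 0.188; limma with run code -0.13 ± 0.04, 0.042). In that limma fit 11.5% of all genes passed. The activity-regulated genes summed to between 73.0 and 98.4 CPM with the benzodiazepines, below the 137.0 to 1130 CPM of the vehicles, and their part in these values was not tested.

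With the glucocorticoids, Mest had 91.49 CPM with Dexamethasone, 90.96 CPM with Betamethasone and 88.77 CPM with Cortisone Acetate, all below the 99.31 CPM of the lowest vehicle. The Mest medians of their runs were 104.3, 99.22 and 97.63 CPM in the same order, so the last 2 were themselves below that vehicle. The log2 fold change of Mest was -0.23 ± 0.05 and did not pass (edgeR adjusted p = 0.334). DESeq2 passed it (adjusted p = 0.0203), with 0.303% of all genes. Limma with run code did not (-0.18 ± 0.13, adjusted p = 1.0). With the thyroid hormones, Igf2 had 76.43 CPM with Levothyroxine·Na and 71.97 CPM with Liothyronine·Na, inside the vehicle range of 17.45 to 77.34 CPM. Both libraries come from run HI.3145, where the Igf2 median was 75.98 CPM.

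Of 64 further imprinted genes, 57 were in the count table and 48 to 52 passed the filter in a given comparison. With Fenofibrate 2 of 52 rose and 3 fell, beside 5.82% and 4.78% of all genes. The median log2 fold change was 0.08 over the 52 genes, -0.23 over the 10 members and -0.0046 over all genes. Dlk1, a Notch-like membrane protein, had 21.94 CPM with Fenofibrate and 6.684 ± 2.31 CPM in the 9 vehicles (SD), a log2 fold change of 1.71 ± 0.4 (edgeR adjusted p = 0.0231). Igf2r, the receptor that clears IGF2, had 141.3 CPM and 85.43 ± 8.56 CPM (0.72 ± 0.13, adjusted p = 0.00735). Htr2a, a serotonin receptor, had 3.689 CPM and 12.8 ± 1.83 CPM (-1.8 ± 0.24, adjusted p = 0.00131), and Usp29, the neighbour of Peg3, 45.21 CPM and 71.56 ± 8.43 CPM (-0.67 ± 0.18, adjusted p = 0.0409). Blcap fell by 0.35 on the log2 scale.

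With Nilotinib 1 of 52 further genes rose and 4 fell, with a median of -0.17, beside -0.07 over the members and -0.014 over all genes. Atp10a, a lipid flippase next to Ube3a, had 4.507 CPM with Nilotinib and 2.662 ± 0.285 CPM in the vehicles (0.75 ± 0.17, edgeR adjusted p = 0.0221). Cobl, an actin nucleator that lies near Grb10, had 22.2 CPM and 45.42 ± 6.48 CPM (-1.04 ± 0.22, adjusted p = 0.0161), and was -0.66 and no longer called in limma with run code (adjusted p = 0.0981). Ppp1r9a, Copg2 and Trappc9 fell by 0.51, 0.47 and 0.44. Formoterol, CE-326597 and Mitoxantrone·HCl passed none of 51 in edgeR. Dio3, the enzyme that breaks down thyroid hormone, had 1.116 CPM with the thyroid hormones and 0.1951 ± 0.0943 CPM in the vehicles (2.47 ± 0.41, edgeR adjusted p = 0.0142). Both Dio3 levels rest on few reads, and the part of counting error in them was not tested. Htr2a was lower with the thyroid hormones (-0.81 ± 0.15, edgeR adjusted p = 0.0275), a call lost in limma with run code (-0.45, adjusted p = 0.453), both libraries being from run HI.3145. Atp10a was lower with the benzodiazepines (-0.44 ± 0.09, adjusted p = 0.0212).

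Across all libraries of the screen some members moved together and others against each other. Levels were taken as log2 CPM minus the median of the run, and p-values came from 100000 permutations within runs, two-sided and adjusted over the 45 pairs. Of the pairs, 36 passed, 16 with a positive and 20 with a negative r, and 11 of the 45 had the same sign in all 9 runs. Of all pairs among 13024 genes with a mean of 1 CPM or more, 65.2% had an r at least 0.172 from 0, the size of the weakest member pair that passed, rounded down. The smallest p the permutations can give is 1e-05, or 1.67e-05 after adjustment, and each pair of members with both an r and a rho printed here reached it, for both, except Ndn with Magel2.

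Snrpn and Grb10 had an r of 0.764 (Spearman's rho 0.714), which was 0.795 without the 2 libraries farthest from the Snrpn median and lay between 0.474 and 0.939 within runs. Ube3a and Grb10 had an r of 0.672 (rho 0.633), Ndn and Snrpn 0.638 (rho 0.7, and an r of 0.396 without centring on the run) and Snrpn and Ube3a 0.579 (rho 0.5), each positive in 9 of 9 runs. Plagl1 ran against Snrpn, with an r of -0.704 (rho -0.649) and within-run values between -0.942 and -0.258. Peg3 ran against H19, with an r of -0.694 (rho -0.669) and within-run values between -0.824 and -0.121. Leaving out the 2 farthest libraries gave -0.671 for the first pair and -0.67 for the second. Mest and Plagl1 had an r of 0.446 (rho 0.411), which fell to 0.378 without the 2 farthest libraries and lay between -0.16 and 0.897 within runs.

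Members of the same cluster did not all track each other closely. Ndn and Magel2, the nearest members on the chromosome, had an r of only 0.254 (rho 0.215, adjusted p 0.000717 for r and 0.00191 for rho), positive in 5 of 9 runs, and an r of 0.165 without centring on the run. Ndn followed Mkrn3, another paternally expressed gene of that cluster, with an r of 0.54 (given with no p). Igf2 and H19, active on opposite parental copies under 1 control region, had an r of -0.338 (rho -0.333), negative in 7 of 9 runs, and an r of -0.508 without centring on the run. Peg3 and the adjoining Usp29 had an r of 0.58, and Ube3a and Atp10a 0.03, as descriptions. Magel2 (34 to 271 counts per library), H19 (2 to 145 counts) and Atp10a (mean of 2.68 CPM) were low. The part of counting error in their r values was not tested.

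Against the marker and activity lists, 97 of 130 pairs of a member with a list passed. Of all pairs of a gene with a list, 70.0% had an r at least 0.144 from 0, the size of the weakest of these, rounded down. Snrpn followed the 6 neuron markers with an r of 0.953 (rho 0.922), between 0.891 and 0.986 within the 9 runs. Grb10 followed them with an r of 0.834 (rho 0.821) and ran against the 5 astrocyte markers with an r of -0.873 (rho -0.861). Ndn had an r of 0.615 with the neuron markers (rho 0.662, and an r of 0.404 without centring on the run), and Plagl1 of -0.703 (rho -0.65). Mest followed the astrocyte markers with an r of 0.518 (rho 0.545). The adjusted p was 2.13e-05 or lower for r in each of these pairs. CPM values of a library share 1 total, so a rise of one group of transcripts lowers the rest.

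Igf2 followed the 5 fibroblast markers, such as collagen genes, with an r of 0.71 (rho 0.689, within runs between 0.176 and 0.926). Peg3 followed the 5 inhibitory neuron markers with an r of 0.605 (rho 0.597). H19 and Ube3a followed the 8 activity-regulated genes, with an r of 0.581 (rho 0.594) and 0.608 (rho 0.606). In each of these 4 pairs the sign was the same in 9 of 9 runs, and leaving out the 2 farthest libraries gave 0.71, 0.571, 0.583 and 0.601. Other lists lay further from 0 for H19: the endothelial list, here Flt1 alone (r 0.74, rho 0.687), the oligodendrocyte markers (r 0.655, rho 0.676), the precursor markers (r 0.651, rho 0.716) and, negatively, the inhibitory neuron markers (r -0.648, rho -0.706). For Ube3a these were the neuron markers (r 0.674, rho 0.648), the excitatory neuron markers (r 0.624, rho 0.612) and, negatively, the astrocyte markers (r -0.677, rho -0.644). For Peg3 the endothelial list lay further from 0, negatively (r -0.622, rho -0.599). Peg3 also had an r of -0.597 with the activity-regulated genes (rho -0.575) and of -0.584 with the oligodendrocyte markers (rho -0.606).

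**Figure D4:**
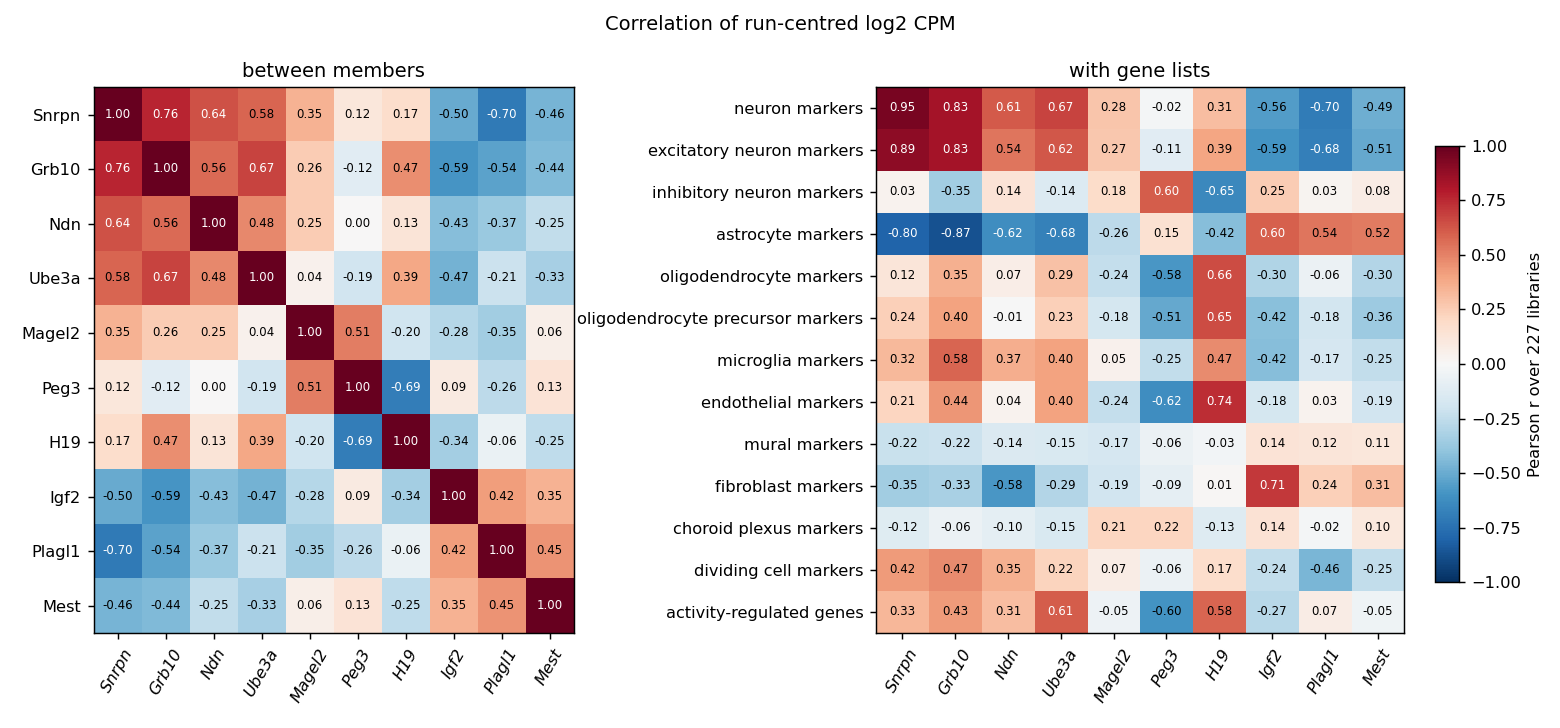
Pearson's r of run-centred log2 CPM over all 218 drug and 9 vehicle libraries, between the 10 members on the left and between members and 13 gene lists on the right, with red for positive and blue for negative values. Snrpn, Grb10, Ndn and Ube3a form a red block and follow the neuron markers, and Plagl1, Mest and Igf2 run against them.

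The genes most like each member, by Pearson's r of run-centred log2 CPM among 13016 genes, are given as a description. Snrpn was closest to Mllt11 (0.96), Nsf (0.95) and Rab3a (0.94), the last 2 being parts of synaptic vesicle release. Grb10 was closest to Camsap3 (0.91), Kif3c (0.91) and Pak1 (0.90), Ube3a to Fyttd1 (0.88), Pgap1 (0.86) and Vcpip1 (0.86), and Ndn to Zcchc18 (0.77), Spint2 (0.76) and Vat1l (0.76). Igf2 was closest to the basement membrane and matrix genes Nid1 (0.92), Bgn (0.91) and Vtn (0.90). Peg3 was closest to Reln (0.84), the secreted protein of certain interneurons, Col25a1 (0.83) and Itsn1 (0.82).

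H19 was closest to Adm (0.84), Fam162a (0.84) and Galk1 (0.84). Adm, which codes for adrenomedullin, and Fam162a are known to be induced by low oxygen. The mean of 10 hypoxia response genes had an r of 0.84 with H19 and of -0.66 with Peg3. That list was chosen after these neighbours had been seen and holds Adm and Fam162a themselves. Its r with H19 is therefore partly set by the choice and is not separate evidence. Plagl1 was closest to Lonrf3 (0.80), Aff1 (0.80) and Hspa9 (0.79). Mest was closest to Mcl1 (0.69), Odc1 (0.68) and Atp11a (0.68), and Magel2 to 5330417C22Rik (0.64), Usp29 (0.64) and Klhl18 (0.62). The lower values of Mest and Magel2 were not compared with the rest by a test.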

How the data were processed

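RNA of 227 libraries was sequenced from stranded mRNA libraries, per the labels' protocols, and the submitters' processing notes name STAR 2.4.0, Subread 1.4.6, limma, edgeR 3.10.5 and the mm10 genome. The authors deposited whole-number counts per gene, with gene length, and a table of RPKM values, reads scaled to gene length and library size, used to compare levels between genes. All tests used the counts. The members and gene lists were chosen with earlier results of these data known.

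Counts were scaled by TMM and given as CPM. Each drug library was tested against 9 vehicles with edgeR 4.0.16 (quasi-likelihood test, genes kept by filterByExpr, Benjamini-Hochberg over all genes, threshold 0.05), and 4 drug classes likewise. Alternatives were DESeq2 1.42.0, RLE size factors, no filter, and limma 3.58.1 with run code as a term, where each drug is compared with the other libraries of its run; each vehicle was left out in turn. The test was checked on simulated counts. Groups came from the agent labels and titles, run codes from the library names. Correlations used log2 CPM with a prior count of 1, centred on the run median. Named drugs were those with a member past the edgeR threshold, Mitoxantrone·HCl, Nilotinib and Fenofibrate, and for each member drugs among the 3 highest and 3 lowest relative to the run. Likeness names the 3 genes of highest r with a mean of 1 CPM or more. Totals between 22.02 and 65.19 M counts set the counting error, which among the members is large only for H19 and Magel2. Of 139 list genes, 132 were found by symbol. RefSeq promoter windows were matched by symbol.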

Additional observations from a re-analysis of the deposited data

How the results depend on the processing

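The count of member calls over 218 drugs, 6 in edgeR, was 6 with RLE size factors, 5 without a filter on low counts, 18 with DESeq2 and 12 with limma and run code. The number of drugs with such a call was 4 in edgeR and 15 with DESeq2. Of the DESeq2 calls 15 were Mest. The benzodiazepines gave 3 members with limma and run code and the glucocorticoids 1 with DESeq2, where edgeR gave 0 in both. Leaving out 1 library at a time moved the count for the thyroid hormones between 0 and 1 (Igf2, without Vehicle replicate 3), left it at 0 for the other 3 classes, and moved the count over Nilotinib, Fenofibrate, Formoterol, CE-326597 and Mitoxantrone·HCl between 4 and 7. Mest kept its call with Fenofibrate (adjusted p 3.82e-05 to 0.000166), Formoterol and Nilotinib, and so did Plagl1 with Nilotinib; Snrpn with Nilotinib lost it in 6 of 9 refits and Mest with CE-326597 in 7 of 9. Of 473 recomputed values 447 kept their direction and their side of the threshold or stayed within their limits, 16 were weaker, 4 were stronger, 6 moved and none reversed. The cause of these differences was not tested. No paired analysis was possible because each drug has 1 library, so a drug and vehicle share at most 1 replicate number. Depth limits H19 and Magel2, single drugs rest on 1 library, and a change seen in 1 run without a vehicle cannot be told apart from its run.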
